A study of Mus musculus with 6 samples.

Results

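The genes described here are 10 immediate early genes, measured by RNA sequencing in dorsal root ganglia of mice whose Schwann cells, the glia of peripheral nerve, lack Grin1 according to the series title. Grin1 encodes GluN1, the subunit that every NMDA receptor needs. The 10 genes were taken by name from a table of 36793 gene identifiers, and all 10 were found and passed the filter on low counts. They are Fos, Fosb and Junb of the AP-1 transcription factors, Egr1 and Egr3 of the zinc finger EGR factors, the nuclear receptor Nr4a1, the activity-regulated factor Npas4, the nuclear protein gene Ier2, the synaptic protein gene Arc and the phosphatase gene Dusp1. The knockout group, labelled as lacking the NMDA receptor, held libraries from mice 4, 5 and 6, and the wild-type group held libraries from mice 1, 2 and 3. Both groups were whole ganglia taken from the lumbar level, and the labels used here give no strain, sex, age, Cre driver, injury or stimulation.

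Immediate early genes are transcribed within minutes of a stimulus from factors that the cell already holds, chiefly serum response factor with its ETS partners and the cyclic AMP response element binding protein CREB. Calcium entry, growth factors and MAP kinase signalling switch them on, and their short-lived messages fall again soon after. In neurons Fos and Egr1 are widely used as signs of recent activity, and in Schwann cells EGR factors also take part in differentiation.

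Proximal promoters were searched for the elements through which CREB and other factors of this response act. Windows of 300 bases on GRCm38.p6 ran from 250 bases before to 50 bases after 1 RefSeq start site per gene. They were searched for Fos, Fosb, Junb, Npas4, Nr4a1 and Dusp1, while Arc, Egr1, Egr3 and Ier2 were not used here. The windows of Fos, Nr4a1 and Dusp1 are shown, chosen for their matches. Of the 6 searched, Fos holds the only TATA box match before the RefSeq start site used. Nr4a1 holds the most TGACG cores and Dusp1 the 1 complete palindrome. The TATA box match of Junb begins at its RefSeq start site, which lies upstream of the Junb start in GENCODE vM21. Capitals mark TGACG, the core of the cyclic AMP response element, on either strand (CGTCA on the other), the complete element TGACGTCA, which holds 2 overlapping cores, the EGR site GCGNGGGCG on either strand, and TATAAA on the printed strand.
Fos: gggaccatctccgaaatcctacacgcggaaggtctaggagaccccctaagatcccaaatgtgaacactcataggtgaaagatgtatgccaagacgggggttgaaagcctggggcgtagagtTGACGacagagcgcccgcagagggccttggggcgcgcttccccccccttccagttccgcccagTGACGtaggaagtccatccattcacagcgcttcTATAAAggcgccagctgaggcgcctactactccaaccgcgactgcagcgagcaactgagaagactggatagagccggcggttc
Nr4a1: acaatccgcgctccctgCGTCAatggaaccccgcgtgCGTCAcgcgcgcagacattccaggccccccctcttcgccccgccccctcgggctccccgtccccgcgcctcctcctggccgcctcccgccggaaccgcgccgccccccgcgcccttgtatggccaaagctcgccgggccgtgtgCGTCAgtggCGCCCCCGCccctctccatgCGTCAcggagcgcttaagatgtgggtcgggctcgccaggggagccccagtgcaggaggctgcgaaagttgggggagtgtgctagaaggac
Dusp1: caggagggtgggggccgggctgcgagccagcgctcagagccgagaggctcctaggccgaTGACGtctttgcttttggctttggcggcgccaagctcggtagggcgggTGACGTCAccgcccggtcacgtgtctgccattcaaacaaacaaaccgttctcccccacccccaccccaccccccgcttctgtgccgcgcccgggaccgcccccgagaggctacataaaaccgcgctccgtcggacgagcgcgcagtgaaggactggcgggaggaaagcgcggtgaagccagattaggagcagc
The Fos window lies at chr12:85473640-85473939 on the plus strand, the Nr4a1 window at chr15:101266596-101266895 on the plus strand, and the Dusp1 window at chr17:26508423-26508722 on the minus strand. The Nr4a1 and Dusp1 windows lie inside the genes as annotated in GENCODE vM21, away from their annotated starts. Fos held 2 TGACG cores, starting 129 and 66 bases before the start site, and its TATAAA began 33 bases before it. Nr4a1 held 4 cores and 1 EGR site. Dusp1 held the complete TGACGTCA, starting 143 bases before the start site, and 1 more TGACG core outside it. All 6 windows searched held at least 1 TGACG core, against 20.8% of 32817 promoter windows of the same length, and the complete element was in 1.79% of those windows. The EGR site was in the windows of Fosb and Nr4a1 and in 5.56% of all windows, and TATAAA in those of Fos and Junb and in 8.32%. The serum response element known as the CArG box, searched on both strands, and the AP-1 site TGANTCA had no match in the 6 windows, against 1.63% and 7.81% of all windows. These matches describe the letters of the windows only, and an element more than 250 bases before the start site would be missed.

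Total expected counts, the gene counts that RSEM estimates, ranged from 28536700 to 36249163 in the knockout libraries and from 28526704 to 32719517 in the wild-type libraries. Knockout libraries 5 and 6 were far closer to each other than the libraries of any other pair. Their mean chi-square per gene was 1.15 over 10258 genes, with 0 genes differing at a false discovery rate of 0.05, whereas the mean was 13.2 to 104, with 3382 to 7317 such genes, in the remaining 14 pairs. They were therefore counted as 1 sample, so that 2 knockout samples were compared with 3 wild-type samples. The sample labels name Schwann cells as the cell type, but neuronal markers summed to 14336 to 16151 CPM in knockout libraries and 11961 to 15111 CPM in wild-type libraries, above the 5957 to 6046 and 4495 to 5190 CPM of myelinating Schwann cell markers, so these are whole ganglia. CPM here are counts per 1000000 scaled by TMM. Grin1 itself was at 81.5, 116 and 116 CPM in knockout libraries 4, 5 and 6, against 68.4, 114 and 74.3 CPM in wild-type libraries 1, 2 and 3. The log2 fold change, always knockout over wild type, was 0.21 (SE 0.26, edgeR adjusted p = 0.812), so the level of the targeted gene in the whole ganglion did not set the libraries labelled knockout apart from those labelled wild type.

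The RNA of all 10 genes was found at low to moderate levels in both groups. Per transcript length the order of the mean deposited TPM over the 6 libraries was Nr4a1 at 24.4, Dusp1 at 19.9, Junb at 14.0, Egr1 at 11.3, Fos at 7.74, Ier2 at 6.06, Egr3 at 3.97, Arc at 3.11, Fosb at 0.527 and Npas4 at 0.313 TPM. Neighbours in this order were often not separable. In knockout libraries the ranges of Junb and Egr1, of Ier2 and Egr3, and of Egr3 and Arc overlapped. In wild-type libraries those of Nr4a1 and Dusp1, of Junb and Egr1, of Fos and Ier2, of Egr3 and Arc, and of Fosb and Npas4 overlapped. Nr4a1, at 23.93 to 31.42 TPM, lay above Dusp1, at 19.52 to 21.14 TPM, in the knockout libraries. The TPM of Egr3 rests on 1 transcript of 1416 bases in the deposited table, where the longest Egr3 transcript in GENCODE vM21 has 3940 bases, so its place in the order depends on that choice. Fosb is also represented by 1 transcript in the table, so its full-length and truncated splice forms could not be told apart.

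**Figure D1:**
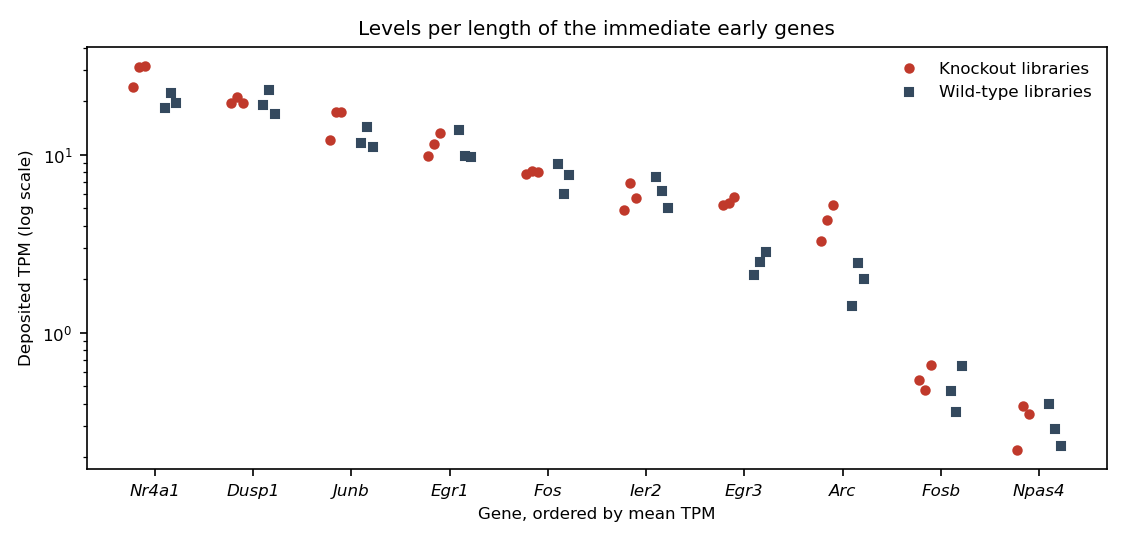
Deposited TPM (log axis) of the 10 immediate early genes, ordered by their mean, in the 3 knockout libraries (red circles) and the 3 wild-type libraries (dark squares). Nr4a1 and Dusp1 stand highest, Fosb and Npas4 lowest, and for Egr3, Arc and Nr4a1 every knockout library lies above every wild-type library.

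Setting knockout against wild type addresses how RNA levels in the ganglion differ with the labelled genotype. No member passed the test, but the 10 did not lie together. Egr3 and Arc were at about double their wild-type level and Nr4a1 was 1.38-fold higher, with no overlap between the groups for any of the 3. The other 7, among them the commonly used activity markers Fos and Egr1, lay between -0.15 and 0.26 on the log2 scale, with overlapping groups. By edgeR's quasi-likelihood test with Benjamini-Hochberg adjustment over 16810 genes, 0 of 10 members passed at 0.05, where 0.0952% of all genes tested did, 0.0595% higher and 0.0357% lower. At an unadjusted p under 0.05 there were 3 members, and 9.16% of all genes. DESeq2 called 1 member, Egr3, and 1.52% of all genes, and limma-voom called 0 members. Groups did not overlap, with the knockout higher, for 3 of 10 members and for 11.8% of all genes, and with the knockout lower for 0 members and 15.6% of all genes. A log2 fold change of at least 1 was found for 2 members and for 1.22% of all genes. In whole ganglia a lower share of cells of one type and less RNA per cell cannot be told apart, and the same holds in the other direction.

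Egr3 lies on chromosome 14 from 70077203 to 70082614, plus strand (GRCm38, GENCODE vM21, as for the positions that follow). This zinc finger factor, induced by calcium and growth factor signals, had 98, 114 and 112 counts in knockout libraries 4, 5 and 6, against 44, 50 and 51 counts in wild-type libraries 1, 2 and 3. Scaled, these were 3.33, 3.27 and 3.51 CPM in knockout and 1.32, 1.57 and 1.74 CPM in wild type. Every knockout library was higher than every wild-type library, and the spread within either group was small beside the gap. Egr3 averaged 3.36 ± 0.0402 CPM in knockout (SD, n = 2) and 1.54 ± 0.214 CPM in wild type (SD, n = 3). That knockout SD rests on 2 values. The 98 counts of knockout 4 alone carry an exact 95% Poisson interval of 79.6 to 119 counts, so the SD understates the uncertainty. The log2 fold change was 1.12 (SE 0.21), or 2.18-fold, with an unadjusted 95% interval of 1.54 to 3.09-fold. The edgeR adjusted p was 0.235, and 147 genes, 0.874% of those tested, had a log2 fold change at least as large. Egr3 passed with the 6 libraries counted separately (edgeR adjusted p = 0.0407), a fit that takes libraries 5 and 6 as separate animals, and with DESeq2 on 5 samples (adjusted p = 0.0106), and the adjusted p ran from 0.0106 to 0.706 over the 18 alternatives. In the fit with 6 libraries 0.871% of 16535 genes passed.

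Arc, on chromosome 15 from 74669083 to 74672570, minus strand, encodes a protein of dendrites that controls the trafficking of AMPA receptors. It had 135, 202 and 225 counts in knockout libraries 4, 5 and 6, against 65, 109 and 80 counts in wild-type libraries 1, 2 and 3. These were 4.59, 5.80 and 7.04 CPM in knockout and 1.94, 3.43 and 2.73 CPM in wild type. The lowest knockout library lay above the highest wild-type library, but the wild-type libraries themselves differed by 1.76-fold. Arc averaged 5.51 ± 1.29 CPM in knockout (SD, n = 2) and 2.70 ± 0.743 CPM in wild type (SD, n = 3) and its log2 fold change was 1.03 (SE 0.28, edgeR adjusted p = 0.366). The unadjusted 95% interval ran from 1.29 to 3.25-fold. Without knockout libraries 5 and 6 the log2 fold change was 0.77.

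Nr4a1, an orphan nuclear receptor on chromosome 15 from 101254269 to 101274795, plus strand, had the highest CPM of the 10 in every library. CPM takes no account of transcript length. By TPM Dusp1 was above Nr4a1 in wild type 1 (18.98 against 18.33) and wild type 2 (23.09 against 22.18). Nr4a1 had 27.3, 33.9 and 34.2 CPM in knockout libraries 4, 5 and 6, against 20.4, 25.01 and 21.3 CPM in wild-type libraries 1, 2 and 3. The gap between knockout 4 and wild type 2 was smaller than the spread within the wild type. Its means were 30.7 ± 4.75 CPM in knockout (SD, n = 2) and 22.2 ± 2.46 CPM in wild type (SD, n = 3) and its log2 fold change was 0.47 (SE 0.15, edgeR adjusted p = 0.453). Without knockout libraries 5 and 6, which leaves knockout 4 alone, the log2 fold change was 0.30.

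**Figure D2:**
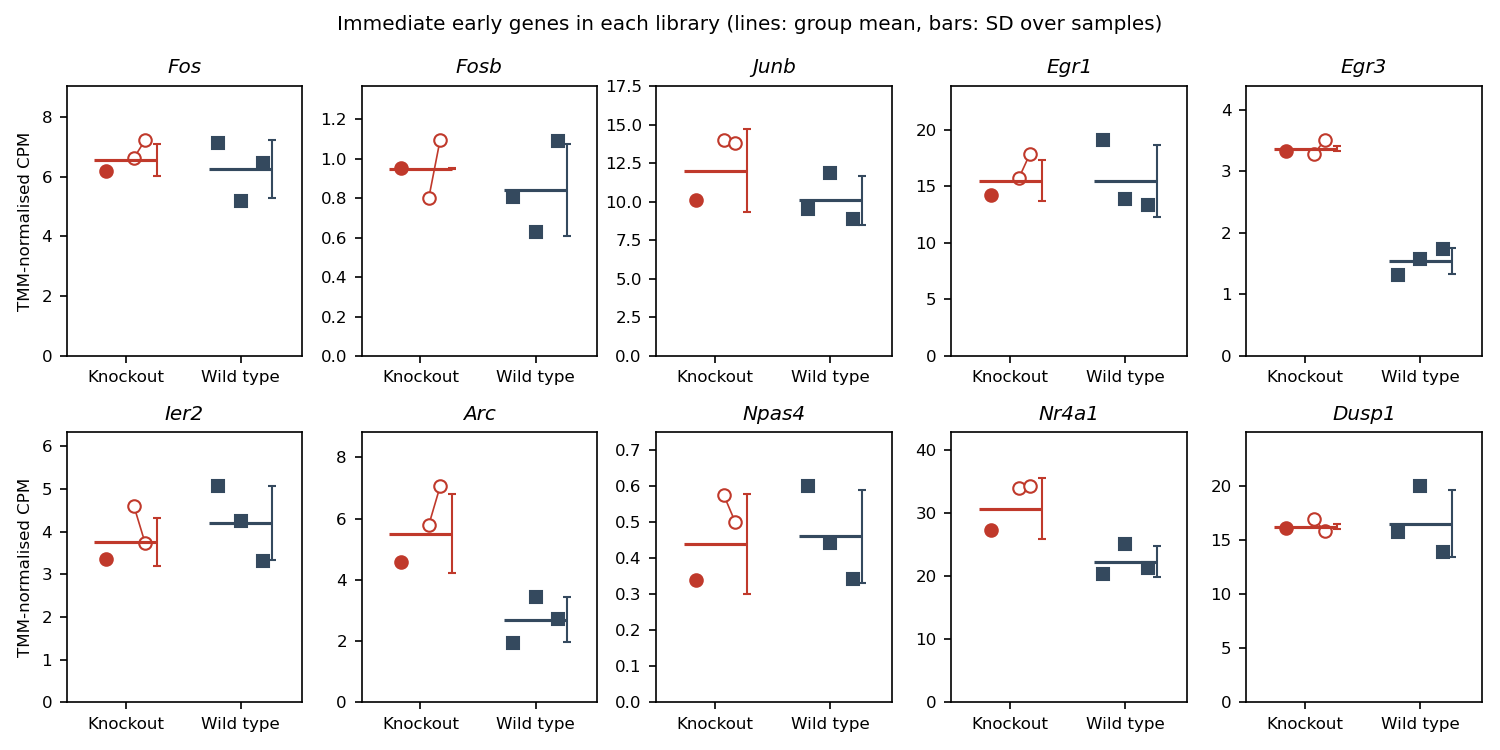
TMM-normalised CPM of each gene by library, with knockout at the left of each panel (filled circle, library 4; joined open circles, libraries 5 and 6, counted as 1 sample) and wild type at the right (squares, libraries 1 to 3). Lines are group means and bars SDs over 2 knockout and 3 wild-type samples. The groups stand apart for Egr3, Arc and Nr4a1 and overlap in the other 7 panels.

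Among the AP-1 members, Fos, on chromosome 12 from 85473890 to 85477273, plus strand, had 6.19, 6.63 and 7.23 CPM in knockout libraries 4, 5 and 6, against 7.12, 5.19 and 6.45 CPM in wild-type libraries 1, 2 and 3. The highest Fos value in wild type and the highest in knockout were almost equal. Its log2 fold change was 0.07, with an unadjusted 95% interval of 0.784 to 1.41-fold, so that a doubling lies outside the interval. Fosb had 28, 28 and 35 counts in knockout and 27, 20 and 32 counts in wild type, with a log2 fold change of 0.17 and an interval of 0.663 to 1.92-fold. Junb, the AP-1 member that can hold back Jun, had 10.1, 14.0 and 13.8 CPM in knockout and 9.54, 11.9 and 8.88 CPM in wild type. Junb was high in knockout libraries 5 and 6 only, while knockout 4 lay inside the wild-type range. Its log2 fold change was 0.26 (edgeR quasi-likelihood adjusted p = 0.704), and it was -0.00091 without libraries 5 and 6. Junb overlaps Prdx2 on the opposite strand, which had 8821 to 11619 counts, and the strand setting of the counting is not given in the sources used here, so the Junb counts are uncertain to that extent.

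Egr1, the EGR member most used as an activity marker, had 14.3, 15.7 and 17.9 CPM in knockout libraries 4, 5 and 6, against 19.1, 13.9 and 13.3 CPM in wild-type libraries 1, 2 and 3. The highest value was in wild type, and the means were almost the same, at 15.5 ± 1.80 CPM in knockout (SD, n = 2) and 15.4 ± 3.19 CPM in wild type (SD, n = 3). Its unadjusted 95% interval was 0.738 to 1.37-fold. The contrast between both EGR genes did not depend on scaling between libraries. Within a library the ratio of Egr3 to Egr1 counts was 0.234, 0.208 and 0.196 in knockout and 0.0689, 0.113 and 0.131 in wild type. The ratio of Arc to Fos counts was 0.742, 0.874 and 0.974 in knockout and 0.273, 0.661 and 0.423 in wild type. For both ratios each knockout library was above each wild-type library. By contrast the ratio of Fosb to Fos was 0.154, 0.121 and 0.152 in knockout and 0.113, 0.121 and 0.169 in wild type, with overlapping groups. These ratios were chosen after the values were seen and are given with no test.

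**Figure D3:**
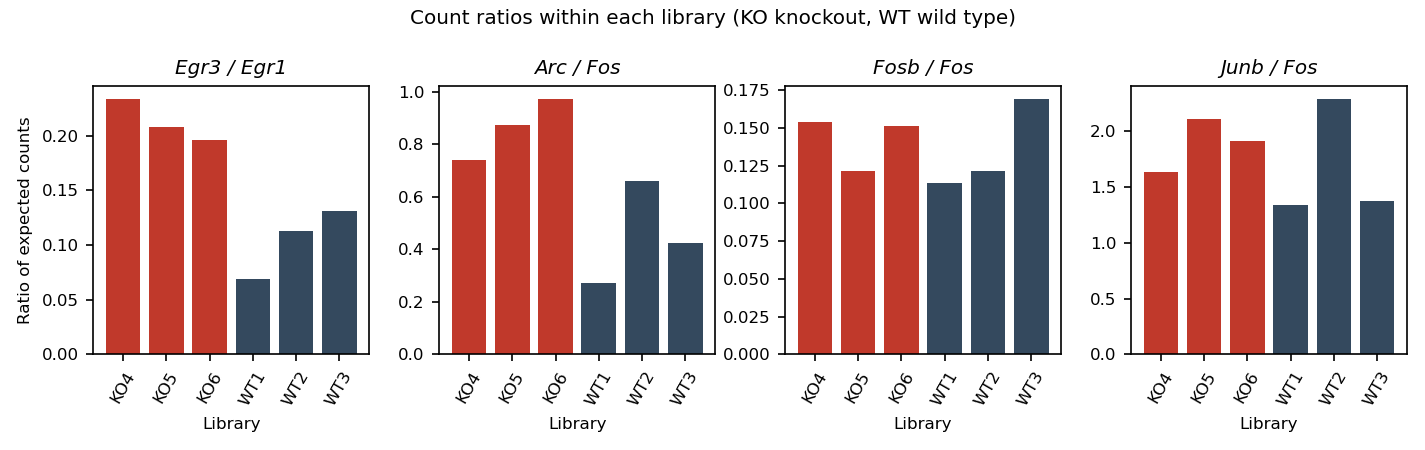
Ratio of expected counts of pairs of immediate early genes within each library, with knockout libraries 4 to 6 in red at the left and wild-type libraries 1 to 3 in dark at the right of each panel. The Egr3 to Egr1 and Arc to Fos bars are higher in every knockout library than in any wild-type library, and the Fosb to Fos and Junb to Fos bars overlap between groups.

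Ier2, a nuclear regulator of immediate early type, had 3.37, 4.59 and 3.73 CPM in knockout libraries 4, 5 and 6, against 5.05, 4.25 and 3.31 CPM in wild-type libraries 1, 2 and 3. Wild-type library 1 was the highest of all, and the log2 fold change of -0.15 had an interval of 0.618 to 1.32-fold. Npas4, a factor induced by neuronal calcium entry, was close to the limit of detection, with 10, 20 and 16 counts in knockout and 20, 14 and 10 counts in wild type. A count of 10 carries an exact 95% Poisson interval of 4.80 to 18.4, which covers counting error only, and the unadjusted 95% interval of the difference ran from 0.501 to 1.93-fold. Dusp1, a phosphatase that switches MAP kinases off, had 16.1, 16.9 and 15.8 CPM in knockout and 15.7, 19.9 and 13.8 CPM in wild type. The knockout values of Dusp1 lay inside the wild-type range, with a log2 fold change of -0.02 and an interval of 0.741 to 1.31-fold. Dusp1 overlaps Ergic1 on the opposite strand in the annotation, with the same limit as for Junb. Among the wild-type libraries the highest value of a member was between 1.23 and 1.76 times the lowest, with a median ratio of 1.44 over the 10 members and 1.27 over all genes tested.

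Over the 10 members 7 log2 fold changes were positive and 3 negative, with a median of 0.123, against a median of 0.001 and 50.2% positive over all genes tested. All 10 members had a GC content above the median of 49.7% of the genes tested, and fold changes followed GC content across all genes. The median log2 fold change was 0.05 in the 4355 genes at 50 to 55% GC and 0.11 in the 2962 genes at 55 to 60%, against -0.08 in the 3206 genes at 40 to 45%. After correction of each sample for GC content the members' median was 0.02, against -0.02 over all genes tested. The part of GC content in the members' values was not tested. Egr3, Arc and Nr4a1 were then at 1.06, 0.90 and 0.34 on the log2 scale, with edgeR adjusted p of 0.133, 0.16 and 0.249.

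**Figure D4:**
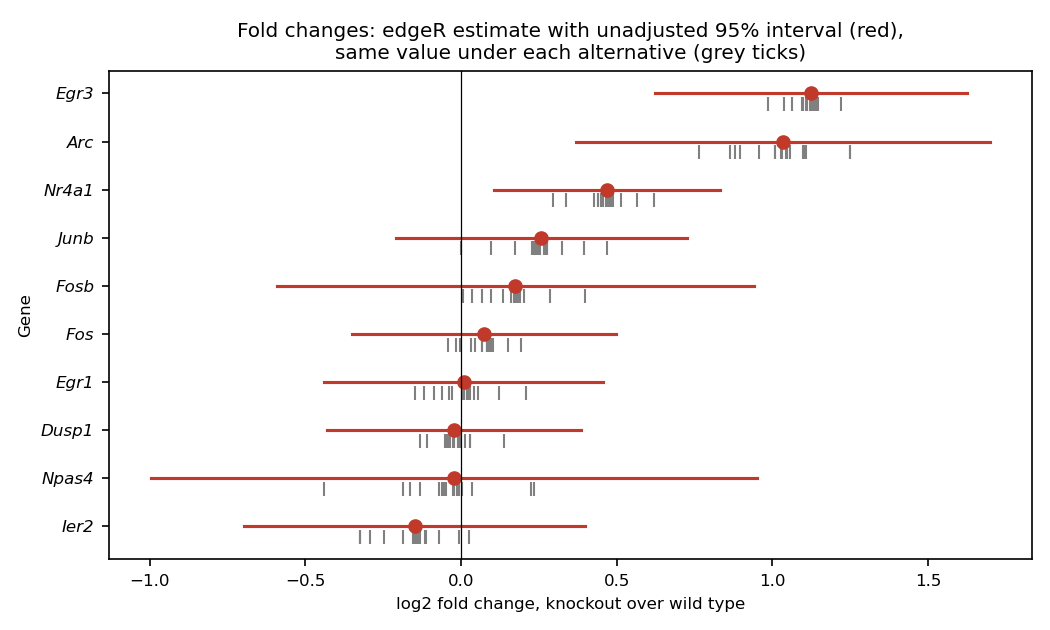
Log2 fold change of each member, knockout over wild type, from edgeR on 5 samples (red points) with unadjusted 95% intervals (red lines), and the same value under each of the alternatives (grey ticks). Egr3 and Arc lie near 1 and Nr4a1 near 0.5 with ticks on the positive side throughout, while the ticks of Fos, Egr1, Ier2, Npas4 and Dusp1 fall on both sides of 0 and those of Junb reach it.

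Profiles over the 5 samples were compared between members, measured as the root mean square difference between log2 CPM centred per gene. Egr3 and Arc were nearest to each other, at 0.236, and Ier2 lay farthest from both, at 0.681 and 0.688. Junb and Nr4a1 were nearest to each other at 0.133, sharing the higher value in the sample of libraries 5 and 6. Over these 5 samples Fos, Egr1, Ier2 and Npas4 were all highest in wild type 1. Averaged over the 10 members, the centred log2 CPM was 0.05 in knockout 4, 0.30 in the sample of knockout libraries 5 and 6, and -0.09, -0.08 and -0.18 in wild type 1, 2 and 3. The sample of libraries 5 and 6 thus stood farther from the wild type than knockout 4 did. The 5 other genes nearest to that mean profile were Rnpepl1, Ushbp1, Fam84b, Gch1 and Ern1, at root mean square differences of 0.0311 to 0.0450, and none of these passed the test.

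Related genes were set beside the members by role. Of 12 other AP-1 family genes 11 were tested, and 1 rose and 0 fell by edgeR. That gene was Atf3, a stress-induced factor that dimerises with Jun, which rose to 58.3, 54.6 and 56.3 CPM in knockout libraries 4, 5 and 6, against 8.61, 8.27 and 6.28 CPM in wild-type libraries 1, 2 and 3. The log2 fold change was 2.88 (SE 0.16, edgeR adjusted p = 0.00722). Fosl2, a Fos relative, was at 14.8, 22.7 and 23.5 CPM in knockout, against 10.02, 10.3 and 9.87 CPM in wild type, and Jun at 66.3, 122 and 121 CPM in knockout, against 43.6, 78.8 and 50.4 CPM in wild type. Neither passed, with log2 fold changes of 0.92 and 0.71 and edgeR adjusted p of 0.257 and 0.575. The groups did not overlap for Fosl2, whereas Jun in knockout 4 lay below wild type 2. Batf2, at less than 1 CPM throughout, had a log2 fold change of -0.72 (edgeR adjusted p = 0.693).

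Of the 6 other EGR and NR4A family genes 5 were tested and 0 passed. Egr2, the EGR factor that drives myelination in Schwann cells, was at 18.3, 39.6 and 38.1 CPM in knockout libraries 4, 5 and 6, against 10.5, 15.9 and 16.8 CPM in wild-type libraries 1, 2 and 3. Its log2 fold change was 1.00 (edgeR adjusted p = 0.48), and the groups did not overlap, with more Egr2 in knockout libraries 5 and 6 than in knockout 4. The 8 markers of myelinating Schwann cells, Egr2 among them, all had positive fold changes with 0 passing, and their summed level was 5957 to 6046 CPM in knockout and 4495 to 5190 CPM in wild type. The part of this difference in the EGR values was not tested. Nr4a2, a relative of Nr4a1, had a log2 fold change of 0.44, the EGR co-repressor genes Nab1 and Nab2 had 0.20 and 0.15, and Nr4a3 had -0.01.

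Of 31 other rapidly induced genes 29 were tested and 0 passed, with 22 positive, 7 negative and a median of 0.182. The members with the smallest p were Gadd45g, a stress-response gene, at 0.80, Nfkbia, the inhibitor of NF-kappaB, at 0.46, Trib1, a pseudokinase, at 0.79 and Plk2, a kinase induced by activity, at -0.33. Of 14 MAP kinase phosphatases and feedback inhibitors 0 passed, with 13 positive and a median of 0.158, and the smallest p belonged to Dusp6 at 0.41, Spred1 at 0.28, Dusp4 at 0.35 and Spry4 at 0.46. Dusp6 and Dusp4 are, like Dusp1, phosphatases of MAP kinases, and Spred1 and Spry4 restrain signalling to them.

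Upstream of the members, 0 of 27 kinases and transcription factors passed, with 17 positive, 10 negative and a median of 0.072. Srf at 0.05 and Creb1 at -0.01, which encode serum response factor and CREB, were close to 0, Elk3 and Elk1, the ETS partners of serum response factor, were at 0.38 and 0.27, the coactivator gene Crebbp was at 0.37 and the calcium-dependent kinase gene Camk4 was at -0.45. Downstream, 0 of 9 delayed activity-induced genes passed, with 4 positive, 5 negative and a median of -0.03. Vgf, a secretory peptide precursor, was at 0.86, Bdnf, a neurotrophin, at 0.56, Nrn1, neuritin, at -0.34 and Rasgrp1, an activator of Ras, at -0.57 on the log2 scale. Of 9 heat-inducible chaperones 0 passed, with a median of 0.173, and Hspb1 was the highest at 0.47, beside Hsph1 at 0.21, Dnajb1 at 0.19 and Hspe1 at -0.18. Counts in these 7 lists depended on the tool. DESeq2 called 5 of their genes, and 1.52% of all genes. Of the 11 other AP-1 family genes tested these were Fosl2 and Atf3, both higher. Of the 29 other rapidly induced genes tested it was Gadd45g, higher. Of the 9 delayed activity-induced genes they were Bdnf, higher, and Rasgrp1, lower, and the remaining lists had none. The lists were chosen with earlier results known, so these counts are given with no test. The edgeR fit with 6 libraries, which takes libraries 5 and 6 as separate animals, called Atf3 and Bdnf, beside 0.871% of all genes. The 4 genes that were not tested, Batf, Egr4, Rgs1 and Ptgs2, had at most 12 counts in any library.

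**Figure D5:**
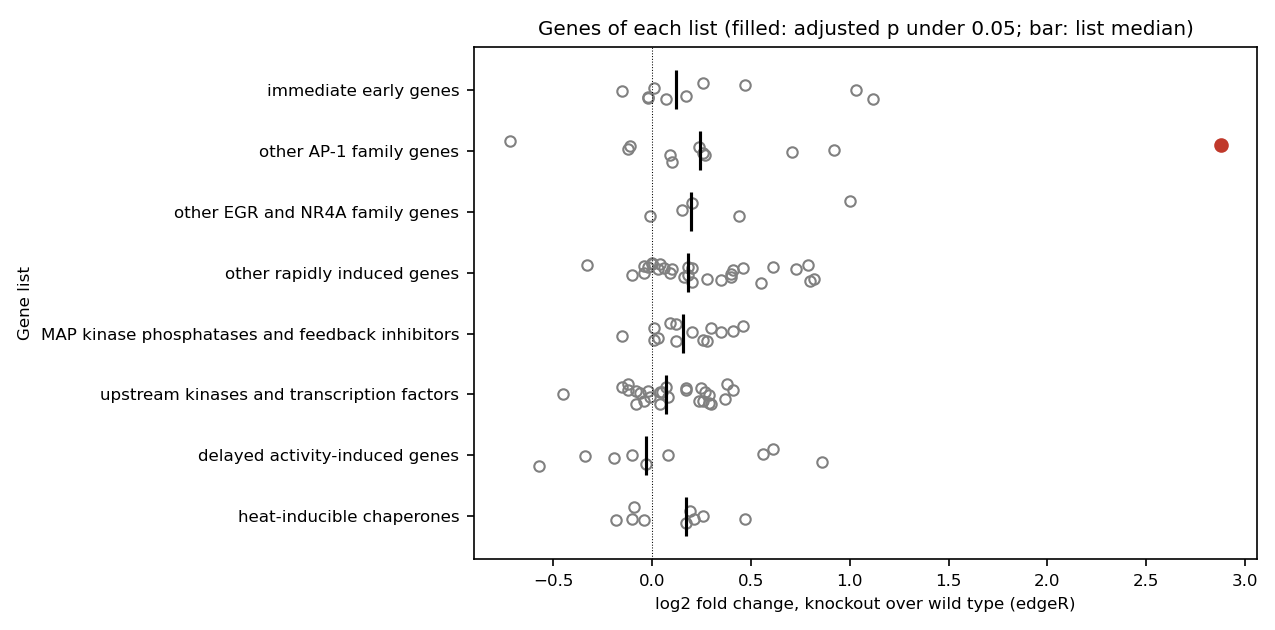
Log2 fold change, knockout over wild type, of each tested gene in the immediate early list and 7 related lists (open circles, adjusted p of at least 0.05; filled circle, below 0.05), with list medians as bars. Atf3 at 2.88 is the 1 filled point, and the medians lie between -0.03 and 0.24.

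Other contents of the tissue moved between libraries as well. The 4 markers of satellite glia, all with positive fold changes, summed to 823 to 835 CPM in knockout and 647 to 737 CPM in wild type, and the 4 of mural cells, 3 of them positive, to 181 to 186 and 242 to 306 CPM. The 5 endothelial markers, all positive, summed to 92.6 to 94.5 CPM in knockout and 71.1 to 79.6 CPM in wild type. Lymphocyte markers, of which 3 of 5 were tested and all 3 were negative, summed to 3.38 to 4.59 CPM in knockout and 5.12 to 6.25 CPM in wild type. Skeletal muscle genes were at 37.0 CPM in knockout 4 and 3.51 and 3.90 CPM in the other knockout libraries, against 2.51 to 10.3 CPM in wild type. Neutrophil markers were at 451, 169 and 167 CPM in knockout libraries 4, 5 and 6 and at 428, 300 and 117 CPM in wild type 1, 2 and 3. Red blood cell genes were at 15016 CPM in knockout 4, against 3178 to 5905 CPM in the wild-type libraries, with 3953 and 3975 CPM in the other knockout libraries. None of the markers of any list passed edgeR or was at 0 in all libraries. Their part in the values of the immediate early genes was not tested.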

How the data were processed

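Bulk RNA of 6 ganglia libraries was sequenced from a stranded mRNA kit, per the labels. Per the submitters' processing notes, the tools were Trimmomatic 0.38, STAR 2.6.0a and RSEM 1.3.0, with the build GRCm38. Which annotation and strand setting were used is not given in the sources used here. For every library the authors deposited expected counts (estimated, not normalized), TPM and gene lengths. All members' counts were whole within 1e-09. Symbols and GC content came from GENCODE vM21, which matched 35243 of 36793 identifiers; the rest held 0.224 to 0.263% of counts.

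Libraries 5 and 6 were summed after the pair check described above. Expected counts were rounded, filtered with filterByExpr, scaled by TMM and tested in edgeR 4.0.16 by quasi-likelihood (R 4.3.3), genotype alone, two-sided, with Benjamini-Hochberg adjustment over all genes. Standard errors are the log2 fold change over the root of the F statistic. Levels are TMM-scaled CPM, with libraries 5 and 6 averaged. Alternatives used DESeq2 1.42.0, limma 3.58.1 (voom, or limma-trend on log2(TPM + 0.5)), other scalings and filters, and a loess GC correction.

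Members and lists were chosen with earlier results of these data known. Named were the members and, per list, genes that passed or up to 4 with the smallest p, and the 5 genes nearest in profile. The count ratios, Srf, Creb1 and Nr4a3 were chosen after their values were seen. The labels name separate mice and say no more of how they were chosen, so p-values measure the spread between these samples.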

Additional observations from a re-analysis of the deposited data

How the results depend on the processing

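No paired analysis was possible because the labels give no number to both a knockout and a wild-type library. The count of 16 genes changed among all genes became 144 with 6 libraries counted separately, 255 with DESeq2, 81 with no filter, 25 with GC correction and 30 at a false discovery rate of 0.10, and 7 to 16 with single replicates left out (7 without knockout 4, 8 without wild type 2, 10 without wild type 3). The cause was not tested except at 0.10, where the looser threshold adds genes. The count of immediate early genes changed was 0, became 1 with 6 libraries counted separately and 1 with DESeq2, both times Egr3 (log2 fold change 1.13 and 1.14), and was 0 under the other alternatives, where Egr3 lay between 0.99 and 1.22. The members' median log2 fold change of 0.123 was 0.06 to 0.22 with single replicates left out and moved to -0.0080 without knockout replicates 5 and 6. Leaving out knockout 4, or libraries 5 and 6 together, leaves 1 knockout sample, assumed to vary like the wild type. Egr3, Arc, Nr4a1 and Fosb kept a positive sign under every alternative that tested them. The signs of values near 0 turned. Without knockout replicates 5 and 6, Fos was at -0.015, Junb at -0.00091 and Egr1 at -0.12; with GC correction, Fos at -0.0035 and Egr1 at -0.15; with upper quartile scaling, Egr1 at -0.030. Dusp1 was at 0.029 on log2(TPM + 0.5) and 0.030 on log2(TPM + 0.1), and Npas4 at 0.035 with 6 libraries. With single replicates left out, Fos ran from -0.043 to 0.19, Egr1 from -0.086 to 0.21, Ier2 from -0.29 to 0.026, Npas4 from -0.19 to 0.23 and Dusp1 from -0.13 to 0.14. None of these passed, and the cause was not tested. Npas4 and Fosb were not tested at a mean of at least 1 CPM. Atf3 passed under every alternative (2.75 to 2.98). Depth limits Npas4 and Fosb, with 10 to 20 and 20 to 35 counts.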
